A study of Mus musculus with 18 samples.

Results

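The regions described here were the accessible chromatin peaks around 43 type I interferon-stimulated genes, read by ATAC-seq, an assay in which a transposase inserts sequencing adapters into open chromatin. A peak was included when it overlapped the window of 25 kb on either side of the transcription start site (TSS) of any of the 43 genes in the mouse mm9 annotation (GENCODE M1), which gave 620 of the 194284 peaks. Of these, 199 belonged to the promoter class (1000 bases before to 100 bases after any annotated TSS, which includes neighbouring genes) and 421 to the distal class. Each gene had between 9 and 25 peaks (median 16), and 55 peaks lay near more than 1 of the genes because many of them sit in clusters. The promoter peak nearest to a gene's TSS is called its lead promoter peak. There were 42 of them, since Dtx3l and Parp9 share a divergent promoter, and they overlapped the TSS of 40 genes. The lead peaks of Nmi and Dhx58 started 269 and 488 bases away, and that of Oasl1 lay 4535 bases inside the gene.

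All cells were bone marrow-derived macrophages (BMDMs), grown for 6 days in L929-conditioned medium from 3 male Il10-/- mice of the C57BL/6J background aged 12 weeks, so every group, controls included, lacked the Il10 gene. The 6 groups, each with 1 library per mouse, were unstimulated and untreated cells, cells given 500 nM (+)-JQ1, cells given 10 ng/mL IL-10, cells given 50 ng/mL LPS, and cells given LPS after (+)-JQ1 or after IL-10. Treatment, or its vehicle, lasted 12 hours, LPS or PBS was then added for 4 hours, and all cells were collected at 16 hours. The labels call the unstimulated cells untreated. The inhibitor (+)-JQ1 binds in the acetyl-lysine pockets of BET proteins, a family of chromatin readers, and LPS is the bacterial cell wall component that activates Toll-like receptor 4. Libraries are named by the replicate numbers of the labels, which describe matched samples but do not say that equal numbers in different groups mark the same mouse.

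Interferon-stimulated genes encode the antiviral proteins that cells make after type I interferon binds its receptor and the kinases JAK1 and TYK2 phosphorylate transcription factors of the STAT family. STAT2 then enters the nucleus with IRF9, which recognises the interferon-stimulated response element (ISRE) in promoters of the genes. Macrophages exposed to LPS make interferon-β through the adaptor TRIF, so the genes respond to LPS both directly through IRF3 and through secreted interferon, while IL-10 is an anti-inflammatory cytokine that acts through STAT3.

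The ISRE core was searched as GAAANNGAAA on both strands of the middle 500 bases of each peak. It was present in 16 of the 42 lead promoter peaks (38.1%), against 6.1% of all 36670 promoter peaks, and in 35 of the 421 distal peaks near the genes (8.31%), against 7.44% of all 157614 distal peaks. Over the whole peak, the shares were 69.0% of lead promoter peaks against 18.3% of all promoter peaks, and 24.5% of the distal peaks against 16.3% of all distal peaks. Peaks near the genes were wider (median 1208 bases) than all peaks (median 956 bases), which bears on the shares over the whole peak. The following stretches of the mm9 genome are the matches nearest the peak centre in promoter and distal peaks whose values are given below, shown because they carry the element that names this gene group. The match is in capitals and each stretch is written 5′ to 3′ on the strand named.
Ifit1 promoter (chr19:34715265-34715294, minus strand): actgagactgGAAAGTGAAActgaagcctg
Ifit3 promoter (chr19:34657853-34657882, minus strand): accagaagagGAAAGTGAAActtaccactg
Isg15 promoter (chr4:155574986-155575015, minus strand): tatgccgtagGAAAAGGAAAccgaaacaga
Ifi205 promoter (chr1:175962001-175962030, minus strand): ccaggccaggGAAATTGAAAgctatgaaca
Ifi204 promoter (chr1:175697192-175697221, minus strand): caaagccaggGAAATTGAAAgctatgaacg
Oas2 promoter (chr5:121199914-121199943, plus strand): aggaacctagGAAATCGAAActcaagtgtg
Oasl1 intronic promoter peak (chr5:115378436-115378465, plus strand): ccgacttgggGAAACAGAAActcatcacag
promoter-class peak upstream of Ifi47 (chr11:48877765-48877794, minus strand): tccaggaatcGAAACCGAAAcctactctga
distal peak downstream of Rsad2 (chr12:27124373-27124402, plus strand): tgtgcactggGAAACGGAAAgcagctgtga
The STAT element TTCNNNGAA, which can overlap an ISRE by its GAA, was in the middle 500 bases of 14.3% of lead promoter peaks and of 12.3% of all promoter peaks, and over the whole peak in 45.2% and 34.2%. The AP-1 site TGANTCA was in 7.14% of lead promoter peaks against 12.7% of all promoter peaks, and in 15.7% of the distal peaks near the genes against 19.3% of all distal peaks. Over the whole peak the AP-1 order was the other way, with 35.7% of lead promoter peaks against 33.7% of all, and 38.5% of the distal peaks against 35.1% of all. The kappaB site GGGNNTTTCC was in 2 of 42 lead promoter peaks (4.76%, against 2.27% of all promoter peaks) and in 4.04% of the distal peaks (against 2.36% of all). Over the whole peak the kappaB shares were 4.76% of lead promoter peaks against 7.83% of all promoter peaks, and 6.89% of the distal peaks against 5.54% of all.

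Libraries held between 12020526 and 25908198 reads in peaks. The scaling factors (trimmed mean of M-values, TMM) of the 3 unstimulated libraries, 1.04 to 1.24, were above those of nearly all others, which ran from 0.896 to 1.05. Promoters of 6 macrophage markers (Csf1r, Emr1, Cd68, Itgam, Cd14 and Fcgr1) were accessible, at group means of 3.51 to 38.5 CPM per kb of peak (median 7.23). Medians were 0 for 4 T cell, 1.43 for 3 B cell, 1.18 for 4 neutrophil, 2.51 for 3 dendritic cell, 2.32 for 2 epithelial and 4.1 for 2 fibroblast markers. The genes Cd3e, Cd3g, Cd8a, Ly6g and Mpo had no promoter peak, Elane reached 2.82, and Zbtb46 was between 22.8 and 32.5 in all groups. The neutrophil gene Camp went from 2.81 in unstimulated to 9.21 in LPS-stimulated cells, and its part in the results was not tested. The 3 peaks over Il10 itself had reads in all libraries (lowest 16.6, highest 398 normalised counts), and since the part of the gene that the null allele removes was not given in the sources used here, they are no check of the genotype.

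Most peaks near the 43 genes were more accessible with LPS. Of the 620 peaks, 396 were more accessible in LPS-stimulated than in unstimulated BMDMs and 4 were less accessible. A peak was called at an adjusted p under 0.05 and an absolute log2 fold-change above 0.5, from the quasi-likelihood test of edgeR with p-values adjusted over all tested peaks by the Benjamini-Hochberg method. Each gene had at least 1 peak that rose, and 42 had 5 or more, the exception being Nmi with 2 of 13. Genes held 9 to 25 peaks, so 1 called peak in a gene is a low bar. The share of all genes that reach it is not given here. A difference that missed the limits on adjusted p and fold was not thereby shown to be absent. Among promoter peaks, 39 of 42 lead peaks and 105 of 157 others rose, where 14.3% of all promoter peaks did. Among distal peaks 252 of 421 rose (59.9%), where 11.1% of all distal peaks did. The median log2 fold-change was 1.19 for lead promoter peaks, 0.85 for other promoter peaks and 0.91 for distal peaks, against 0.12 over all promoter and -0.07 over all distal peaks. In bulk libraries of this kind, more cells with an open site and more opening per cell cannot be told apart. With the sequencing lane as a term 394 peaks rose.

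**Figure D1:**
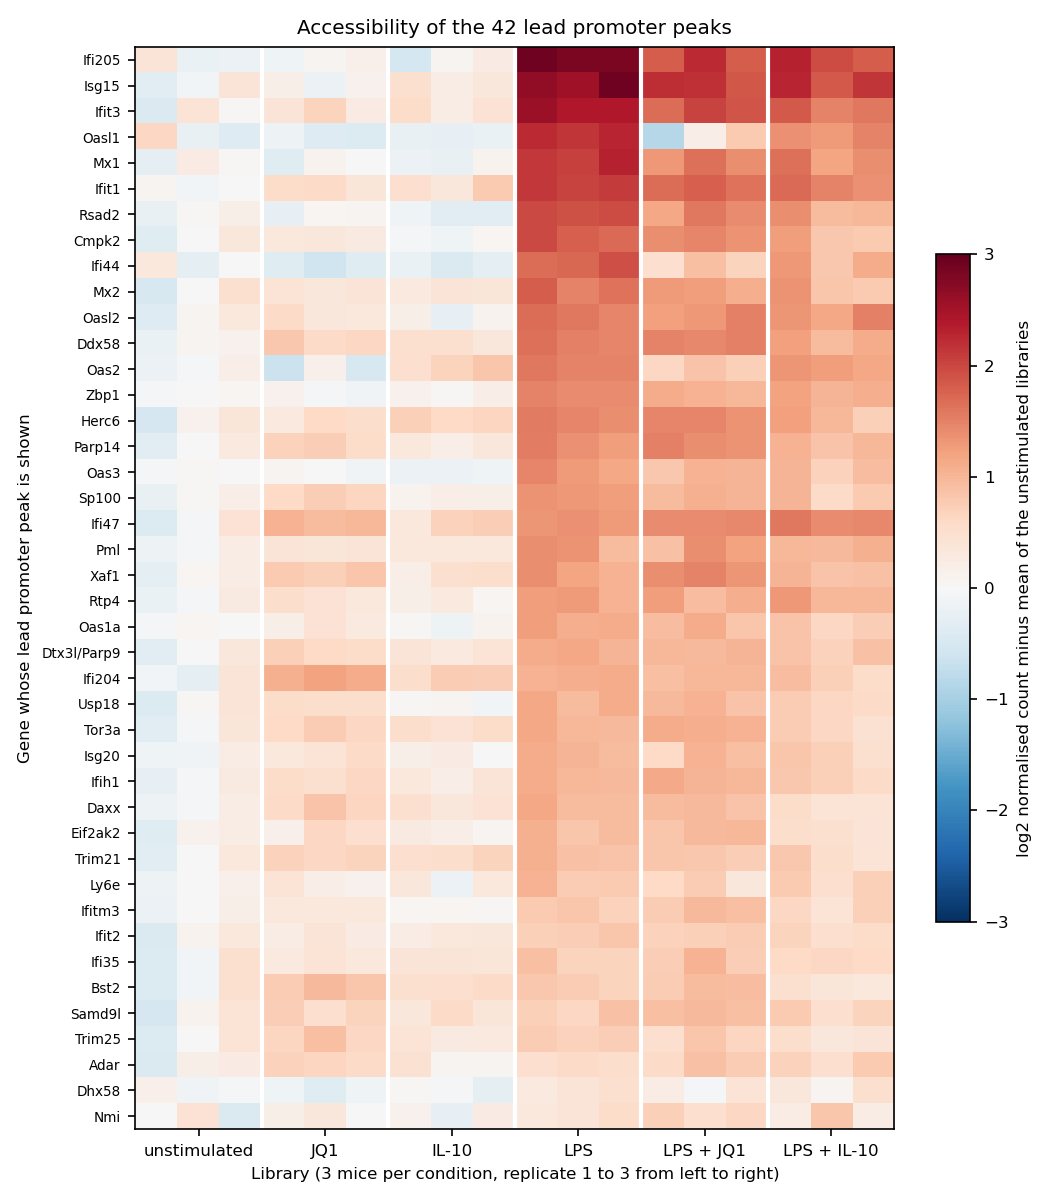
Accessibility of the 42 lead promoter peaks in all 18 libraries, as the log2 normalised count minus the mean of the 3 unstimulated libraries of the same peak (colour scale, red higher and blue lower); rows are ordered by the LPS fold-change. Ifi205, Isg15 and Ifit3 stand at the top, and Adar, Dhx58 and Nmi at the foot change least.

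The RNA-binding and nucleic acid-degrading effectors comprised 13 genes, of which 12 had a lead promoter peak that rose with LPS (median log2 fold-change 1.31). IFIT1 binds viral RNA that lacks the host cap methylation, and promoters of the IFIT genes rose by 2.09 (Ifit1), 0.73 (Ifit2) and 2.42 (Ifit3) on the log2 scale. The oligoadenylate synthetases, which make the second messenger that activates RNase L, rose by 1.16 (Oas1a), 1.51 (Oas2) and 1.31 (Oas3), and the related Oasl1 and Oasl2 by 2.17 and 1.54. Promoters of the exonuclease gene Isg20 (1.02), the RNA-activated kinase gene Eif2ak2 (0.93), Zbp1, a sensor of Z-form nucleic acid (1.44), and Samd9l (0.68) also rose. Adar, the RNA-editing adenosine deaminase, did not pass the fold limit (log2 fold-change 0.49 ± 0.16 SE, edgeR adjusted p = 0.014). Distal peaks of these 13 genes rose at 80 of 130 sites and fell at none.

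The membrane, GTPase and nucleotide effectors all had a lead promoter peak that rose, with a median log2 fold-change of 1.43 over 8 genes. The dynamin-like GTPases Mx1 and Mx2 rose by 2.15 and 1.59. Rsad2, which encodes viperin, and its divergent neighbour Cmpk2, a mitochondrial nucleotide kinase, rose by 1.94 and 1.79. The other values were 1.27 for the immunity-related GTPase gene Ifi47, 0.86 for Ly6e, 0.76 for Ifitm3, which blocks viral entry, and 0.69 for Bst2, the tether of budding virions. Of their 87 distal peaks, 60 rose and 1 fell.

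Lead promoters of 4 of the 5 nucleic acid sensors rose. The RNA helicases Ddx58 (RIG-I) and Ifih1 (MDA5) rose by 1.53 and 1.01, and the DNA-sensing family members Ifi204 and Ifi205 by 1.05 and 2.84. The promoter peak nearest to Dhx58 (LGP2), 488 bases away, centred in an intron of the neighbour Kat2a and 5764 bases wide, did not pass (log2 fold-change 0.38 ± 0.15 SE, edgeR adjusted p = 0.052). At the sensors 32 of 58 distal peaks rose and 1 fell.

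All 7 lead promoter peaks of the ISG15, ubiquitin and ADP-ribose group rose. Isg15, a ubiquitin-like modifier, rose by 2.67, and Usp18, the protease that removes it, by 1.03. The ubiquitin ligases followed with 1.43 (Herc6), 0.91 (Trim21) and 0.68 (Trim25). The ADP-ribosyltransferase gene Parp14 rose by 1.37, and the shared promoter of Dtx3l and Parp9 by 1.07. Distal peaks of the group rose at 46 of 74 sites and fell at 1.

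Nuclear body genes and the remaining members had 8 of 9 lead promoter peaks that rose. Pml, the scaffold of PML nuclear bodies, and its partners Sp100 and Daxx rose by 1.24, 1.28 and 1.01. Ifi44, Xaf1, Rtp4, Tor3a and Ifi35 rose by 1.77, 1.20, 1.18, 1.02 and 0.70. Nmi, whose protein pairs with that of Ifi35, had a small lead peak that did not pass (log2 fold-change 0.37 ± 0.30 SE, edgeR adjusted p = 0.41). Distal peaks of the group rose at 34 of 72 sites and fell at 1.

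The 4 distal peaks with the largest rise were at Ifit3, Ifit1, Cmpk2 and Rsad2, among called peaks with at least 50 normalised counts on average and the same direction between libraries of each replicate number. The peak 3.51 kb upstream of Ifit3 (chr19:34653883-34655146, intergenic) had 17.7, 25.9 and 16.5 normalised counts in unstimulated cells and 462, 471 and 479.5 after LPS (log2 fold-change 4.54 ± 0.22 SE, edgeR adjusted p = 3.2e-34). The groups were far apart, with no LPS library near any unstimulated library, a description of a peak picked for its large fold. With (+)-JQ1 before LPS the same peak had 140.3, 276 and 276 normalised counts, and with IL-10 before LPS it had 254, 171 and 196. All 6 of these libraries lay between the unstimulated and the LPS libraries. The peak 12.6 kb downstream of Ifit1 (chr19:34727503-34728415, intergenic) went from 12.6, 26.9 and 9.29 to 338, 343 and 339 normalised counts (log2 fold-change 4.36 ± 0.22 SE, edgeR adjusted p = 1.4e-32). A peak 12.9 kb downstream of the Cmpk2 TSS (chr12:27166473-27167479, intergenic) went from 26.5, 18.6 and 15.5 to 303, 323 and 316 (log2 fold-change 3.97 ± 0.23 SE, edgeR adjusted p = 1.4e-28). Both peaks had unstimulated counts so low that a few reads move the ratio, whereas their LPS counts varied little between libraries. The peak 16.9 kb downstream of the Rsad2 TSS (chr12:27123693-27125166, intergenic), which holds the ISRE match printed above, went from 61.8, 80.8 and 88.8 to 1283, 1012 and 1159 (log2 fold-change 3.89 ± 0.17 SE, edgeR adjusted p = 9.2e-39).

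In the promoter class the leading peaks by the same rule were at Oasl1, Ifi205, Isg15 and Ifi47. The Isg15 promoter peak (chr4:155574356-155575798, centre intergenic) had 103, 121 and 167 normalised counts in unstimulated and 809, 746 and 961 in LPS-stimulated cells (log2 fold-change 2.67 ± 0.15 SE, edgeR adjusted p = 8e-29). The Ifi205 promoter peak (chr1:175961323-175962748) went from 106, 70.4 and 71.3 to 613, 577 and 571 (log2 fold-change 2.84 ± 0.17 SE, edgeR adjusted p = 9e-29). Neither pair of groups overlapped, and the lowest LPS library was several times the highest unstimulated library. A promoter-class peak 17.7 kb downstream of the Oasl1 TSS (chr5:115390265-115391726, intergenic, nearest coding gene 2210016L21Rik) went from 37.8, 42.5 and 40.3 to 326, 312 and 278 (log2 fold-change 2.92 ± 0.20 SE, edgeR adjusted p = 1.6e-24). A further one lay 12.3 kb upstream of the Ifi47 TSS, in an intron of Olfr56 with Tgtp2 as the nearest coding gene (chr11:48877417-48878184), and went from 12.6, 20.7 and 22.7 to 101, 115 and 134 (log2 fold-change 2.61 ± 0.26 SE, edgeR adjusted p = 4e-15).

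The 4 peaks that fell with LPS were all distal, where 11.0% of all distal peaks fell. The peak 23.7 kb upstream of Ifi205 had 55.5, 73.5 and 63.0 normalised counts in unstimulated and 48.5, 45.2 and 32.6 in LPS-stimulated cells (log2 fold-change -0.59 ± 0.23 SE, edgeR adjusted p = 0.042). The other 3, named after their values were seen, lay near Ifi35 (-1.48), Trim21 (-0.67) and Bst2 (-0.60). With any 1 replicate number left out, 1 peak was called lower. The Ifi205 value was -0.53 (adjusted p = 0.22) without replicate 2 and -0.47 (adjusted p = 0.24) without replicate 3, and it also missed the limits in DESeq2.

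Peaks with and without an ISRE match in the middle 500 bases rose. By count, 15 of 16 lead promoter peaks with a match rose (median log2 fold-change 1.47) and 24 of 26 without a match (1.02). At distal peaks 24 of 35 with a match rose (1.25) and 228 of 386 without (0.91). By distance, the median log2 fold-change was 1.06 for the 100 distal peaks within 5 kb of a TSS and 0.78 for the 72 peaks at 20 to 25 kb. By annotation, 128 of 207 distal peaks centred in introns, 101 of 180 intergenic ones, 13 of 22 in coding exons and 10 of 12 in untranslated exons rose.

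**Figure D2:**
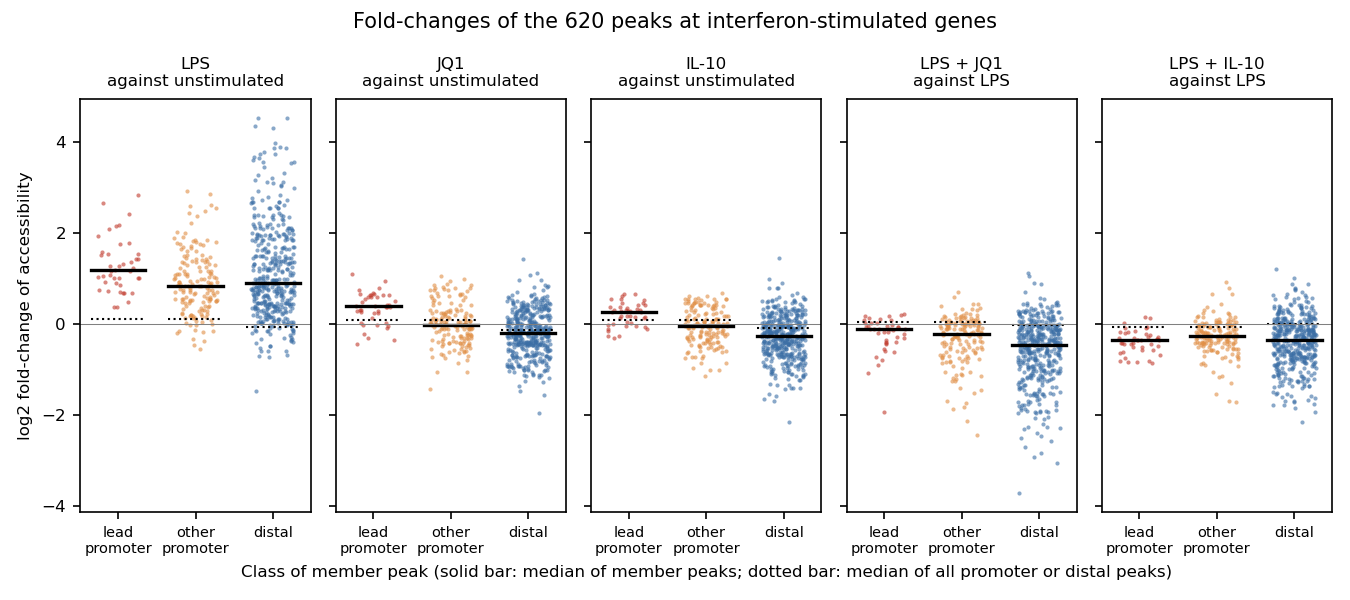
Log2 fold-changes of the 620 peaks in 5 comparisons, each point a peak, by class (42 lead promoter, 157 other promoter and 421 distal peaks). Solid bars are medians of these peaks and dotted bars medians of all promoter or distal peaks; the distal median falls to -0.46 for LPS with (+)-JQ1 against LPS while the lead promoter median is -0.12.

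Next, accessibility with (+)-JQ1 before LPS was compared with LPS alone. The comparison is of levels under LPS, so shifts that (+)-JQ1 also made in resting cells are part of it. Whether the LPS response itself differed is tested by the interaction term below. With (+)-JQ1, 194 of the 620 peaks fell and 3 rose, at 41 and 3 of the 43 genes respectively. The gene counts need only 1 called peak among 9 to 25, and no share over all genes is given beside them. Distal peaks fell at 143 of 421 sites (34.0%), where 3.55% of all distal peaks fell, with a median log2 fold-change of -0.46. Promoter peaks fell at 8 of 42 lead peaks and 43 of 157 others, where 3.22% of all promoter peaks fell, with medians of -0.12 and -0.21. With loess offsets, which remove trends with mean count, the lead promoter median was -0.20. These libraries were balanced over the lanes, and 194 peaks also fell with lane as a term. Between 138 and 177 peaks fell when 1 replicate number was left out.

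The 8 lead promoter peaks that fell with (+)-JQ1 belonged to Oasl1 (-1.93), Ifi44 (-1.07), Ifi205 (-0.89), Oas2 (-0.79), Mx1 (-0.71), Isg15 (-0.62), Ifit3 (-0.60) and Rsad2 (-0.55), as log2 fold-changes. At Isg15 the LPS libraries had 809, 746 and 961 normalised counts and those with (+)-JQ1 before LPS 593, 582 and 469 (log2 fold-change -0.62 ± 0.14 SE, edgeR adjusted p = 0.0011). The groups did not overlap, and every library with (+)-JQ1 stayed far above the unstimulated ones. At Oasl1 the intronic lead peak (chr5:115377784-115379229) went from 148, 137 and 152 normalised counts with LPS to 17.4, 36.0 and 54.1 with (+)-JQ1 before LPS (log2 fold-change -1.93 ± 0.23 SE, edgeR adjusted p = 1.3e-10), next to 47.9, 26.9 and 23.8 in unstimulated cells. Here the libraries with (+)-JQ1 spanned the range of the unstimulated ones. For the remaining 34 lead promoter peaks the log2 fold-change lay between -0.45 (Mx2) and 0.21 (Adar) and none passed.

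The genes with the most peaks lowered by (+)-JQ1 were Oasl1, Oas2, Cmpk2, Rsad2, Ifih1 and Parp14. At Oasl1 17 of 25 peaks fell, at Oas2 14 of 16, at Cmpk2 14 of 24, at Rsad2 13 of 23, at Ifih1 11 of 18 and at Parp14 11 of 20. Cmpk2 and Rsad2 are adjacent and share many of these peaks. Some of the lowered Oasl1 peaks lie nearest to Oasl2, and 1 of the lowered Oas2 peaks lies nearest to Oas3, and such peaks count for each gene. No peak of Ifit2 or Trim25 fell, and 1 peak each of Adar, Samd9l, Ifitm3 and Ifi35 did.

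By the same minimum of 50 normalised counts on average, the called distal peaks with the largest fall were at Oasl1 and Oas2. The peak 9.03 kb downstream of the Oasl1 TSS (chr5:115381752-115382807, Oasl1 intron) had 193, 178 and 151 normalised counts with LPS and 20.2, 25.7 and 21.9 with (+)-JQ1 before LPS (log2 fold-change -2.93 ± 0.24 SE, edgeR adjusted p = 6.5e-18). Its unstimulated libraries had 29.0, 20.7 and 11.4, so the libraries with (+)-JQ1 and LPS overlapped the unstimulated range. The peak 20.9 kb downstream of the Oas2 TSS (chr5:121177733-121180168, intergenic, nearest coding gene Dtx1) went from 433, 438 and 445 with LPS to 53.5, 64.8 and 62.9 with (+)-JQ1 before LPS (log2 fold-change -2.84 ± 0.16 SE, edgeR adjusted p = 2.9e-27). All 3 of those libraries lay below all unstimulated libraries, which had 106, 80.8 and 66.1. In the promoter class the peak 17.7 kb downstream of Oasl1 went from 326, 312 and 278 to 53.5, 59.7 and 54.8 normalised counts (log2 fold-change -2.44 ± 0.19 SE, edgeR adjusted p = 8.9e-20).

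The 3 peaks that rose with (+)-JQ1 under LPS, where 1.72% of all promoter and 1.74% of all distal peaks rose, were near Ifit2, Ifi205 and Samd9l. A promoter-class peak in an intron of Lipa, 24.8 kb upstream of Ifit2, had 470.2, 406 and 396 normalised counts with LPS and 608, 721 and 606 with (+)-JQ1 before LPS (log2 fold-change 0.60 ± 0.14 SE, edgeR adjusted p = 0.0013). It also rose with (+)-JQ1 in resting cells (log2 fold-change 0.67 ± 0.14 SE, edgeR adjusted p = 0.0001). The distal peak near Ifi205 that had fallen with LPS had 83.9, 80.2 and 72.4 (log2 fold-change 0.88 ± 0.22 SE, edgeR adjusted p = 0.0052), and an intronic Samd9l peak 1.09 kb downstream of its TSS had 284, 156 and 197 against 128, 154 and 146 with LPS (log2 fold-change 0.55 ± 0.17 SE, edgeR adjusted p = 0.029). All 3 calls were lost in some fits with 1 replicate number left out, which have fewer libraries. Without replicate 2 the Lipa peak had 0.48 (adjusted p = 0.24) and the Ifi205 peak 0.91 (adjusted p = 0.062), without replicate 3 the Ifi205 peak had 0.80 (adjusted p = 0.1) and the Samd9l peak 0.62 (adjusted p = 0.091), and without replicate 1 the Samd9l peak had 0.24 (adjusted p = 0.59) in edgeR.

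By role, distal peaks fell with (+)-JQ1 at 47 of 130 sites of the RNA-binding effectors, 34 of 87 of the membrane and GTPase effectors, 25 of 58 of the sensors, 19 of 74 of the ISG15 and ubiquitin group, and 18 of 72 of the nuclear body group. Lead promoter peaks fell at 3 of 13, 2 of 8, 1 of 5, 1 of 7 and 1 of 9 in the same order. By distance, 23 of 100 distal peaks within 5 kb of a TSS fell (median log2 fold-change -0.24), 32 of 87 at 5 to 10 kb (median -0.62), 40 of 94 at 10 to 15 kb (median -0.51), 20 of 68 at 15 to 20 kb (median -0.44) and 28 of 72 at 20 to 25 kb (median -0.56). Of distal peaks with an ISRE match 14 of 35 fell (median -0.44), and of those without 129 of 386 (median -0.47).

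**Figure D3:**
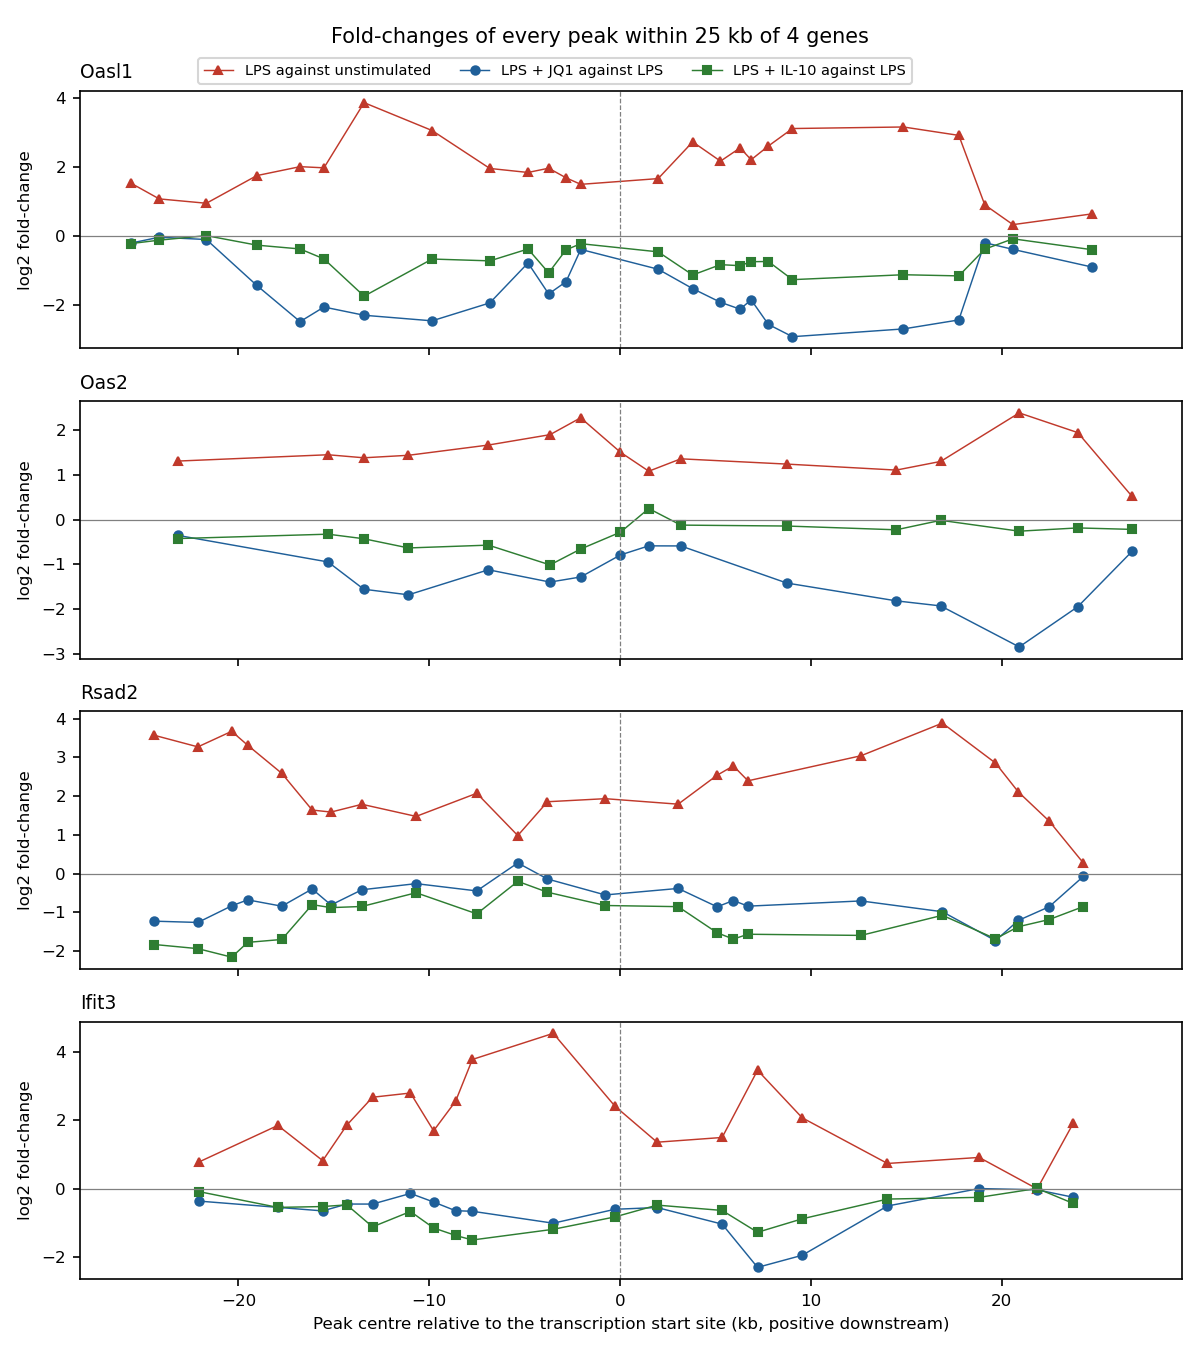
Log2 fold-change of every peak within 25 kb of Oasl1, Oas2, Rsad2 and Ifit3 against the distance of the peak centre from the TSS in kb, for LPS against unstimulated (red triangles), LPS with (+)-JQ1 against LPS (blue circles) and LPS with IL-10 against LPS (green squares). At Oasl1 and Oas2 the (+)-JQ1 values fall further than the IL-10 values at most peaks, and at Rsad2 the IL-10 values are the lower ones at most peaks.

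With IL-10 before LPS, 149 of the 620 peaks fell relative to LPS alone and 3 rose, with falls at 34 of the 43 genes. As for (+)-JQ1, any called peak was enough for a gene to count, which is a low bar. No share over all genes is given beside this gene count. Distal peaks fell at 111 of 421 sites (26.4%), where 4.65% of all distal peaks fell, with a median log2 fold-change of -0.36. Promoter peaks fell at 11 of 42 lead peaks and 27 of 157 others, where 3.94% of all promoter peaks fell, with medians of -0.35 and -0.26. With loess offsets the lead promoter median was -0.26. With lane as a term 150 peaks fell, and without replicate 2 the number was 80.

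The 11 lead promoter peaks lowered by IL-10 were those of Cmpk2 (-0.85), Oasl1 (-0.84), Rsad2 (-0.83), Ifi205 (-0.82), Ifit3 (-0.82), Mx1 (-0.74), Ifi44 (-0.68), Mx2 (-0.64), Isg15 (-0.61), Daxx (-0.56) and Ifit1 (-0.56). At Isg15 the libraries with IL-10 before LPS had 622, 459 and 567 normalised counts (log2 fold-change -0.61 ± 0.14 SE, edgeR adjusted p = 0.00084), below all LPS libraries and close to those with (+)-JQ1. The genes with the most peaks lowered by IL-10 were Cmpk2 (20 of 24 peaks), Rsad2 (18 of 23), Ifih1 (11 of 18), Oasl1 (10 of 25), Ifit3 (9 of 19) and Trim21 (9 of 16). Bst2, Ddx58, Dhx58, Ifi204, Ifi35, Ifitm3, Rtp4, Samd9l and Trim25 had no peak that fell.

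With that minimum, the called distal peaks with the largest fall under IL-10 both lay in the Cmpk2 gene. The intronic peak 7.61 kb downstream of its TSS (chr12:27161224-27162127) had 213, 233 and 234 normalised counts with LPS and 59.4, 69.9 and 25.1 with IL-10 before LPS (log2 fold-change -2.16 ± 0.23 SE, edgeR adjusted p = 5.2e-13). With (+)-JQ1 before LPS it had 83.9, 178 and 116, above all libraries with IL-10. The peak 9.38 kb downstream of the TSS, in an untranslated exon (chr12:27162903-27163988), went from 205, 251 and 261 to 53.6, 45.9 and 84.8 (log2 fold-change -1.94 ± 0.21 SE, edgeR adjusted p = 5.8e-12). Among promoter-class peaks the exonic Cmpk2 peak 4.98 kb downstream of the TSS (chr12:27157934-27160161) went from 178, 259.8 and 298 to 84.2, 63.3 and 76.2 (log2 fold-change -1.70 ± 0.20 SE, edgeR adjusted p = 8e-11). The groups did not overlap at any of these 3 peaks. The second promoter-class peak was the Oasl1 one described above, with 177, 96.1 and 134 normalised counts (log2 fold-change -1.16 ± 0.17 SE, edgeR adjusted p = 6.1e-08).

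The 3 peaks that IL-10 raised under LPS were distal, where 4.54% of all distal peaks rose. A peak in an intron of Rab5c, 16.4 kb upstream of Dhx58 (chr11:100581538-100582406), had 120.4, 144 and 113 normalised counts with LPS and 185, 193 and 190.5 with IL-10 before LPS (log2 fold-change 0.59 ± 0.16 SE, edgeR adjusted p = 0.0066). A peak 7.34 kb upstream of Ifit1, in an intron of 2010002M12Rik, had 100.4, 115 and 124 and 189.6, 120.1 and 182 (log2 fold-change 0.55 ± 0.18 SE, edgeR adjusted p = 0.039), with replicate 2 inside the LPS range. The other peak, near Rtp4 and named after its values were seen, had a log2 fold-change of 1.22. Without replicate 3 the Rab5c peak had 0.52 (adjusted p = 0.1) and the Ifit1 peak 0.53 (adjusted p = 0.17), and without replicate 1 the Ifit1 peak had 0.36 (adjusted p = 0.35) in edgeR. By role, distal peaks fell with IL-10 at 33 of 130 sites of the RNA-binding effectors, 32 of 87 of the membrane and GTPase effectors, 14 of 58 of the sensors, 23 of 74 of the ISG15 and ubiquitin group and 9 of 72 of the nuclear body group.

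**Figure D4:**
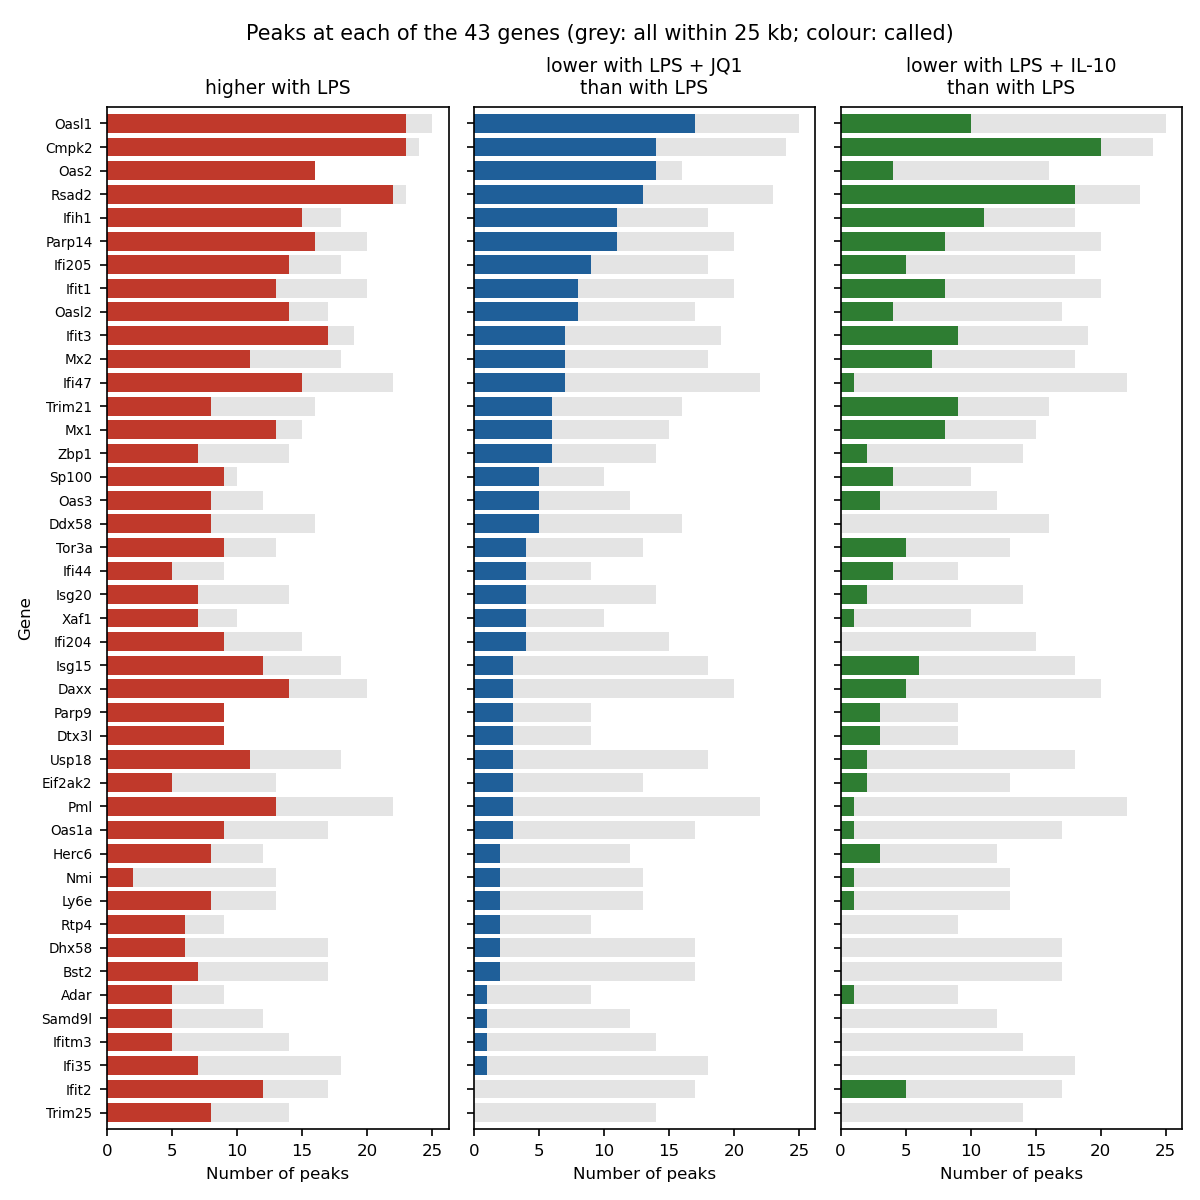
Number of peaks within 25 kb of each of the 43 genes (grey) and number called (coloured) as higher with LPS, lower with LPS and (+)-JQ1 than with LPS, and lower with LPS and IL-10 than with LPS; genes are ordered by the middle panel. Oasl1 leads with 17 peaks lowered by (+)-JQ1, and Cmpk2 has the most peaks lowered by IL-10, 20.

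Tested directly against each other under LPS, the treatments differed at 97 of the 620 peaks, 71 lower and 26 higher with (+)-JQ1 than with IL-10. Distal peaks were lower with (+)-JQ1 at 56 of 421 sites (13.3%, background 5.00% of all distal peaks) and higher at 18 (4.28%, background 3.07%). Lead promoter peaks were lower at 2 of 42, Oas2 and Oasl1, and other promoter peaks at 13 of 157, where 3.29% of all promoter peaks were lower, and 8 other promoter peaks were higher, where 4.97% of all were. The lead promoter median was 0.20, against 0.08 over all promoter peaks, and it was 0.06 with loess offsets and 0.12 with total-count scaling. Without replicate 2, 2 peaks were higher with (+)-JQ1, without replicate 1, 43 were, and without replicate 3, 47 were lower.

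By gene, Oasl1 had 13 peaks lower with (+)-JQ1 than with IL-10, Oas2 10, and Dhx58, Ifi47, Ifit1, Oasl2 and Zbp1 5 each, and none of these 7 genes had a higher one. A peak within 25 kb of both Oasl1 and Oasl2 counts for each, so these numbers are not independent. Cmpk2 and Rsad2 each had 9 peaks that were higher with (+)-JQ1, all of them within 25 kb of both genes, and none that was lower. At the distal Oas2 peak 20.9 kb downstream of the TSS the libraries with IL-10 before LPS had 362, 378 and 363 normalised counts, all above those with (+)-JQ1 given above (log2 fold-change -2.59 ± 0.17 SE, edgeR adjusted p = 5e-25). IL-10 itself did not move this peak past the test relative to LPS (log2 fold-change -0.26 ± 0.14 SE, edgeR adjusted p = 0.26). At the peak 12.6 kb downstream of the Rsad2 TSS (chr12:27128013-27129373, untranslated exon) the order was the other way, with 247, 359 and 344 for (+)-JQ1 and 192, 134 and 189 for IL-10 (log2 fold-change 0.89 ± 0.15 SE, edgeR adjusted p = 4.4e-06), next to 545, 501 and 520.1 with LPS alone. At Isg15 the lead promoter did not pass (log2 fold-change -0.01 ± 0.14 SE, edgeR adjusted p = 0.98).

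**Figure D5:**
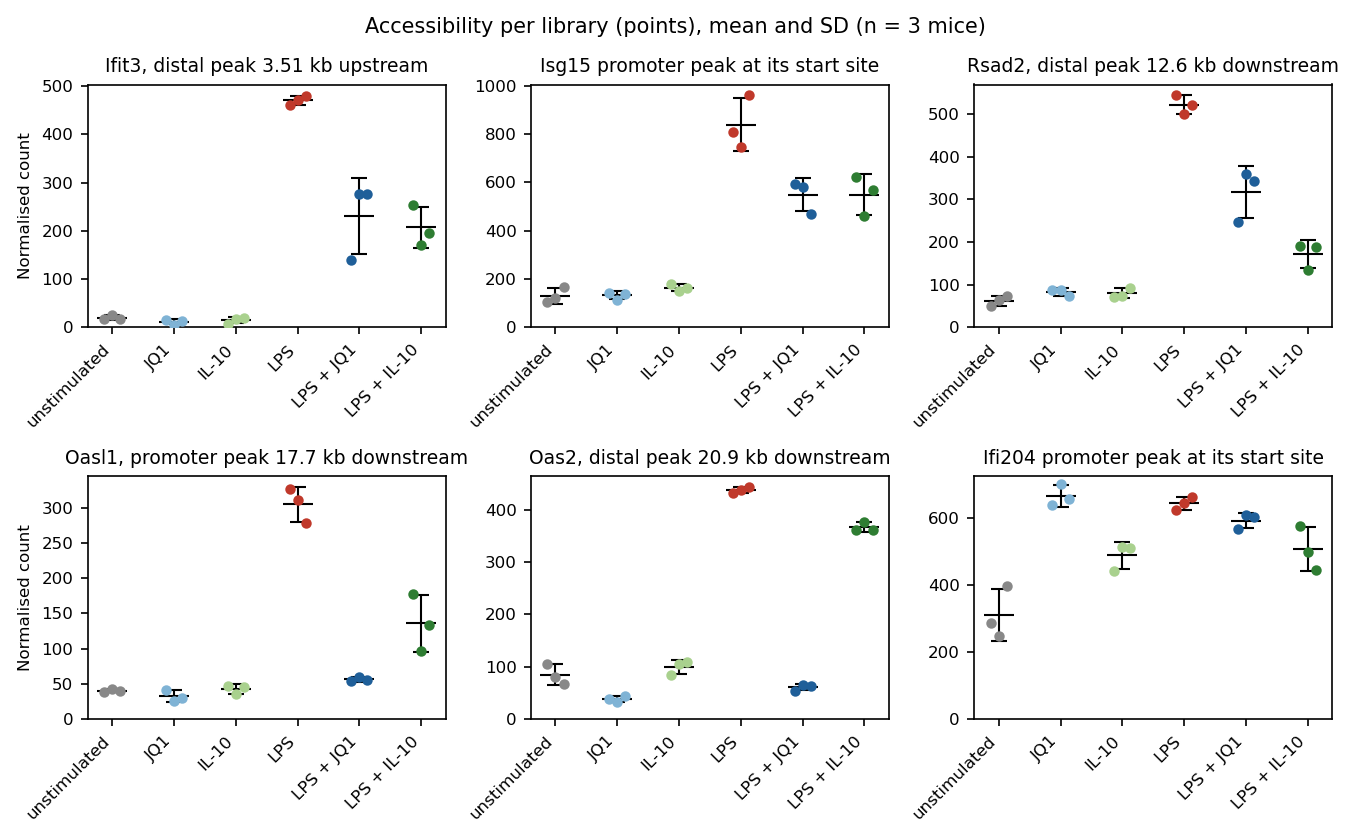
Normalised counts of 6 peaks in the 18 libraries (points, 3 mice per group) with group means and SD (bars, n = 3); the vertical axes start at 0. Under LPS, the Oasl1 and Oas2 peaks are below 70 normalised counts with (+)-JQ1, while libraries with IL-10 before LPS stay at 96.1 or more. The Rsad2 peak is lowest with IL-10 among the LPS groups, and the Ifi204 promoter is already open with (+)-JQ1 alone.

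In resting cells (+)-JQ1 alone was followed by small shifts that differed between classes. Of the 620 peaks 57 rose and 30 fell. Lead promoter peaks rose at 16 of 42 and other promoter peaks at 25 of 157, where 22.9% of all promoter peaks rose, and 7 other promoter peaks fell, where 2.15% of all did. Distal peaks rose at 16 of 421 sites (3.80%, background 4.34%) and fell at 23 (5.46%, background 3.39%). The lead promoter median was 0.39 with TMM scaling but -0.02 with loess offsets, which left 3 lead promoter peaks called higher and 4 lower. The direction of the lead promoter median thus depended on the scaling. Without replicate 2, 17 peaks rose and 8 fell, and without replicate 1, 39 rose and 15 fell.

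The Ifi204 promoter peak (chr1:175696749-175697717) had 285, 248 and 398 normalised counts in unstimulated cells, 637, 701 and 655 with (+)-JQ1 and 440.2, 512 and 511 with IL-10 (log2 fold-change 1.10 ± 0.14 SE, edgeR adjusted p = 2.9e-08, and log2 fold-change 0.65 ± 0.14 SE, edgeR adjusted p = 0.0009, respectively). All treated libraries lay above the unstimulated range, and LPS alone gave 623, 643 and 662. The IL-10 call at Ifi204 was lost with total-count scaling and with loess offsets, under which no lead promoter peak rose with IL-10 alone. A promoter-class peak centred in an untranslated exon of the ribosomal protein gene Rpl27, 5.89 kb upstream of Ifi35, rose with (+)-JQ1 (log2 fold-change 1.06 ± 0.14 SE, edgeR adjusted p = 4.3e-08) and with IL-10 (log2 fold-change 0.69 ± 0.14 SE, edgeR adjusted p = 0.00034), from 351, 445 and 499.9 to 809, 1026 and 871 and 681, 715 and 703. Neither call near Ifi35 held with loess offsets, and the IL-10 value without replicate 2 was 0.70 (adjusted p = 0.064). The distal peak whose centre lay 25.4 kb upstream of Pml, nearest to Stoml1, had 302, 367 and 443 and 769, 882 and 720.2 normalised counts (log2 fold-change 1.09 ± 0.14 SE, edgeR adjusted p = 2.6e-08), a call lost with loess offsets. A distal peak 11.4 kb upstream of Ifitm3, nearest to Ifitm6, had 146, 159.5 and 246 and 336, 360.4 and 383 (log2 fold-change 0.96 ± 0.15 SE, edgeR adjusted p = 1e-06).

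Falls with (+)-JQ1 in resting cells were led by peaks at Oas2, Ifih1 and Mx1. At the distal Oas2 peak 20.9 kb downstream of the TSS, (+)-JQ1 gave 38.2, 31.7 and 43.4 normalised counts against 106, 80.8 and 66.1 without it (log2 fold-change -1.13 ± 0.20 SE, edgeR adjusted p = 1.5e-05). The exonic promoter-class peak 14.5 kb downstream of the Oas2 TSS (chr5:121183892-121186891) had 85.8, 53.9 and 53.7 in unstimulated cells and 17.98, 26.4 and 26.6 with (+)-JQ1 (log2 fold-change -1.43 ± 0.25 SE, edgeR adjusted p = 1e-05). No library with (+)-JQ1 reached the unstimulated range at either peak. An intronic Ifih1 peak 22 kb downstream of its TSS (chr2:62461011-62463519) went from 59.3, 45.6 and 65.1 to 36.0, 25.1 and 16.8 (log2 fold-change -1.14 ± 0.25 SE, edgeR adjusted p = 0.00044). A promoter-class peak in Fam3b, 13.4 kb upstream of Mx1, went from 117, 91.1 and 66.1 to 49.5, 30.4 and 49.3 with (+)-JQ1 (log2 fold-change -1.05 ± 0.22 SE, edgeR adjusted p = 0.00018), and to 42.6, 54.1 and 43.4 with IL-10 (log2 fold-change -0.96 ± 0.21 SE, edgeR adjusted p = 0.0012). Without replicate 3 the Ifih1 value was -0.75 (adjusted p = 0.098) in edgeR. The value at Fam3b was -0.88 (adjusted p = 0.055) for (+)-JQ1 without replicate 2 and -0.67 (adjusted p = 0.11) for IL-10 without replicate 1.

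With IL-10 alone 27 of the 620 peaks rose and 43 fell. Lead promoter peaks rose at 6 of 42 and other promoter peaks at 10 of 157, where 8.72% of all promoter peaks rose, while 5 other promoter peaks fell, where 1.97% of all did. Distal peaks rose at 11 of 421 sites (2.61%, background 4.33%) and fell at 38 (9.03%, background 3.85%). The lead promoter median was 0.26, and -0.11 with loess offsets, under which no lead promoter peak rose and 3 fell. Without replicate 1, 15 peaks rose and 5 fell, without replicate 2, 3 rose and 11 fell, and without replicate 3, 53 rose and 43 fell.

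Among the promoters, Oas2 rose with IL-10 from 162, 177 and 209.7 to 257, 287 and 322 normalised counts (log2 fold-change 0.66 ± 0.15 SE, edgeR adjusted p = 0.0016), whereas with (+)-JQ1 it had 116, 201 and 131 (log2 fold-change -0.31 ± 0.16 SE, edgeR adjusted p = 0.22). The IL-10 libraries lay above all unstimulated ones, but the call was lost with total-count scaling, with loess offsets and without replicate 2, where the value was 0.63 (adjusted p = 0.09). The leading distal rises were at Ifitm3, 12.5 kb downstream of the TSS (278, 334 and 325 to 562, 690.0 and 612, log2 fold-change 0.99 ± 0.14 SE, edgeR adjusted p = 1.1e-07), and in Rab5c near Dhx58, 15.3 kb upstream of its TSS (162, 205 and 247 to 368, 417 and 371, log2 fold-change 0.91 ± 0.15 SE, edgeR adjusted p = 5.4e-06). The leading distal falls by the same rule were at Ifit1 and Cmpk2, at peaks with few counts in resting cells. The minimum of 50 normalised counts in that rule is an average over all 6 groups. Both peaks stayed below it in every library of the groups compared here and passed through the LPS-stimulated groups. The peak 14 kb downstream of Ifit1 (chr19:34728938-34729795) had 21.4, 22.8 and 14.5 and 8.34, 3.67 and 9.74 normalised counts (log2 fold-change -1.41 ± 0.36 SE, edgeR adjusted p = 0.0053), and LPS took it to 273, 278 and 235. The peak 11.7 kb downstream of Cmpk2 (chr12:27165173-27166281) had 40.4, 31.1 and 17.6 and 10.2, 9.16 and 15.1 (log2 fold-change -1.33 ± 0.33 SE, edgeR adjusted p = 0.0034). A promoter-class peak in an intron of Herc6 had 37.8, 50.7 and 42.3 and 21.3, 25.7 and 25.7 (log2 fold-change -0.85 ± 0.27 SE, edgeR adjusted p = 0.027). Calls of these 3 falls were lost in some fits with 1 replicate number left out, which have fewer libraries. The Herc6 value was -0.84 (adjusted p = 0.12), -0.77 (adjusted p = 0.2) and -0.92 (adjusted p = 0.064) without replicate 1, 2 and 3 in turn. Without replicate 1 and without replicate 2, the Ifit1 value was -1.43 (adjusted p = 0.051) and -0.96 (adjusted p = 0.24), and the Cmpk2 value -0.97 (adjusted p = 0.14) and -1.15 (adjusted p = 0.12).

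Peaks rose with LPS in treated cells also. Relative to (+)-JQ1 alone, LPS with (+)-JQ1 raised 236 of the 620 peaks and lowered 0. Among lower peaks, 4 had an unadjusted p under 0.05 in edgeR, and 0 of the 559 peaks evaluated in DESeq2 were called lower. The share of all peaks that fell is not given for this comparison, so the 0 cannot be set against it. The 236 were 23 of 42 lead promoter, 62 of 157 other promoter and 151 of 421 distal peaks, where 4.74% of all promoter and 5.91% of all distal peaks rose. Relative to IL-10 alone, LPS with IL-10 raised 345 peaks and lowered 2. The 345 were 25 lead promoter, 79 other promoter and 241 distal peaks, where 6.63% of all promoter and 9.47% of all distal peaks rose. Both peaks that fell lay near Trim21 (1 promoter-class and 1 distal, named after their values were seen), where 5.56% of all promoter and 6.68% of all distal peaks fell. In cells without treatment the numbers were 39, 105 and 252.

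The difference between these LPS effects was tested by the interaction term. The LPS effect was smaller with (+)-JQ1 than without it at 115 peaks and larger at 0 in edgeR. There 9 peaks were larger at an unadjusted p under 0.05. In DESeq2 it was larger at 0 of the 372 peaks evaluated there. The share of all peaks with a larger effect with (+)-JQ1 is not given here, so the 0 cannot be set against it. The 115 were 16 of 42 lead promoter, 35 of 157 other promoter and 64 of 421 distal peaks, where 11.2% of all promoter and 1.33% of all distal peaks had a smaller effect. With IL-10 the effect was smaller at 85 peaks (21 lead promoter, 32 other promoter and 32 distal), where 16.9% of all promoter and 3.33% of all distal peaks were smaller. It was larger at 3 distal peaks, where 2.15% of all distal peaks were larger, namely 1 near Ifi47 described below and, named after their values were seen, a further one near Ifi47 (1.76) and one near Oas1a (2.52). These counts changed with the scaling and the libraries used. With loess offsets the smaller effects numbered 60 for (+)-JQ1 (5 lead promoter, 8 other promoter and 47 distal) and 32 for IL-10 (7, 5 and 20). The loss was thus mostly at promoter peaks. The lead promoter median of the interaction went from -0.59 to -0.21 for (+)-JQ1 and from -0.61 to -0.16 for IL-10. Without replicate 2 the counts were 11 and 8, and without replicate 1 they were 43 and 57. These comparisons share the LPS and unstimulated libraries.

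The peaks singled out by the rule for the interaction with (+)-JQ1 all lay along Oasl1. The intronic peak 9.03 kb downstream of its TSS had an interaction log2 fold-change of -2.48 (edgeR adjusted p = 0.0002), the intergenic peak 14.8 kb downstream of the TSS (chr5:115387333-115388862) -2.32 (adjusted p = 3.9e-05), and the promoter-class peak 17.7 kb downstream of the TSS -2.12 (adjusted p = 7.6e-06). At 14.8 kb downstream of the TSS the normalised counts were 39.1, 21.8 and 26.9 unstimulated and 307, 283 and 184 with LPS, but 23.6, 29.0 and 14.8 with (+)-JQ1 alone and 36.2, 32.9 and 47.5 with (+)-JQ1 and LPS. With (+)-JQ1 the LPS libraries all lay above those without LPS, and all LPS libraries with (+)-JQ1 lay below those with LPS alone. The value at this peak without replicate 2 was -1.74 (adjusted p = 0.13) in edgeR. With IL-10, the most negative interaction among the peaks singled out by the rule was at the Rsad2 peak 12.6 kb downstream of the TSS, -1.93 (edgeR adjusted p = 8e-09), where IL-10 alone gave 72.3, 73.3 and 93.0 normalised counts and unstimulated cells had 50.5, 63.2 and 74.4. At Mx2 the peak in an untranslated exon 24.5 kb downstream of the TSS (chr16:97781757-97782592) went from 34.1, 34.2 and 24.8 to 273, 211 and 225 with LPS and from 25.9, 45.8 and 34.5 to 119, 91.7 and 117 in the presence of IL-10 (log2 fold-change -1.31 ± 0.31 SE, edgeR adjusted p = 0.0029 for the interaction). An Ifi47 intronic peak 1.49 kb downstream of its TSS had the opposite sign (log2 fold-change 1.03 ± 0.34 SE, edgeR adjusted p = 0.037), a call lost with loess offsets, in DESeq2 and without replicate 1, 2 or 3, where it was 0.95 (adjusted p = 0.17), 1.19 (adjusted p = 0.14) and 0.96 (adjusted p = 0.17). The Mx2 value without replicate 2 was -1.14 (adjusted p = 0.13).

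The genes that carry the interferon signal were read from a separate list, of which 17 are given here, with 89 promoter-class and 206 distal peaks within 25 kb, none of them shared with the 620. With LPS 45 of the promoter-class peaks rose (50.6%, background 14.3%) and 1 fell (1.12%, background 6.71%), and 63 of the distal peaks rose (30.6%, background 11.1%) and 6 fell (2.91%, background 11.0%). (+)-JQ1 before LPS raised 3 promoter-class peaks (3.37%, background 1.72%) and lowered 10 (11.2%, background 3.22%), and it raised 5 distal peaks (2.43%, background 1.74%) and lowered 15 (7.28%, background 3.55%). IL-10 before LPS raised 5 promoter-class peaks (5.62%, background 3.04%) and lowered 9 (10.1%, background 3.94%), and it raised 26 distal peaks (12.6%, background 4.54%) and lowered 20 (9.71%, background 4.65%). The promoter of Ifnb1, which encodes interferon-β, had 81.0 ± 20.01 normalised counts (SD, n = 3) in unstimulated cells, 198 ± 23.9 with LPS, 149.6 ± 29.5 with (+)-JQ1 before LPS and 134 ± 16.1 with IL-10 before LPS. It rose with LPS (log2 fold-change 1.27 ± 0.18 SE, edgeR adjusted p = 1.6e-08) and fell with IL-10 (-0.55 ± 0.17 SE, edgeR adjusted p = 0.023), and the value for (+)-JQ1 did not pass (-0.42 ± 0.17 SE, edgeR adjusted p = 0.15).

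Among transcription factors of the list, promoters rose with LPS by 1.06 (Stat2), 0.93 (Irf9), 1.21 (Irf7) and 0.95 (Irf1) on the log2 scale, while Irf3, which is activated by phosphorylation, did not pass (log2 fold-change -0.19 ± 0.13 SE, edgeR adjusted p = 0.33). The promoter peaks nearest to Irf7 and Irf3 did not overlap the TSS and lay 414 and 831 bases away. With (+)-JQ1 none of the 5 promoters passed, although 4 peaks each of Stat2, Irf9 and Irf1 and 5 of Irf7 fell. With IL-10 before LPS the promoter of Irf1 fell (log2 fold-change -0.64 ± 0.13 SE, edgeR adjusted p = 0.0002), as did 8 of the 17 Irf1 peaks in all. Of the receptor and kinase genes, Tyk2 had 9 of 17 peaks that rose with LPS and 7 that IL-10 lowered, and Ifnar1 and Ifnar2 had 7 and 9 peaks that IL-10 raised. Among the genes between the LPS receptor and IRF3, Ikbke had 13 of 15 peaks that rose with LPS, Tbk1, Ticam1 and Ticam2 had 4, 5 and 5, and Tlr4 had none that rose and 3 that fell. The inhibitor Socs3, a STAT3 target, had 17 of 27 peaks that rose with LPS and 13 that rose with IL-10 before LPS, with none lowered by either treatment. Socs1 had 8 of 14 peaks that rose with LPS and 3 that each treatment lowered.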

How the data were processed

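ATAC-seq libraries of BMDMs from 3 Il10-/- mice in 6 groups (18 libraries) were used. The authors deposited raw read counts per peak, made with PEPATAC from Bowtie2 alignments to mm9 and a union of MACS2 peaks called per sample, and they assigned promoter and distal classes with ChIPseeker. Tables of promoter and distal peaks repeat the counts of the full table. Peak coordinates are printed as deposited, and whether starts count from 0 or 1 was not stated in the sources used here, while printed sequence coordinates count from 1. Another 6 columns matched no sample and were not used.

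Counts were fitted in edgeR 4.0.16 (R 4.3.3) with TMM scaling, filterByExpr (194230 of 194284 peaks kept, all 620 among them), 1 coefficient per group over all 6 groups, and the quasi-likelihood test with Benjamini-Hochberg adjustment over all tested peaks. Peaks with an adjusted p under 0.05 and an absolute log2 fold-change above 0.5 were called. Standard errors were derived from the F statistics. Normalised counts are TMM-scaled CPM brought to the mean library size. The fit was tested on simulated counts. Replicates within a group were taken as separate mice, and the model did not pair them across groups. Counting error is part of the spread between libraries, and peaks with few reads are less precise.

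Each gene is given by its lead promoter peak. Peaks printed library by library were, in each main comparison, the 4 rising and 2 falling promoter-class and distal peaks with the largest fold among those called, with at least 50 normalised counts on average and the same sign between libraries of each replicate number, and 2 of each in the resting comparisons and interactions. Such a choice favours groups that do not overlap, so the separation stated for these peaks is a description and no further test. The average count runs over all 6 groups, so the minimum does not secure that many counts in the groups compared. The members, lists and rules were chosen with earlier results of these data known. Spi1, on the list of macrophage markers, was not found under that symbol, and some genes of the marker and pathway lists are not reported here. Alternatives were other scalings, filters, DESeq2 1.42.0, a replicate block, sequencing lane as a term, other peak-to-gene rules and each replicate number left out. Sequences and annotation came from the mm9 genome and GENCODE M1.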

Additional observations from a re-analysis of the deposited data

Results flagged for a closer look

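The LPS effect differed between treated and untreated cells by the interaction test in edgeR, at an adjusted p under 0.05 and an absolute log2 fold-change above 0.5. It was smaller with (+)-JQ1 at 115 of the 620 peaks and larger at 0, and smaller with IL-10 at 85 and larger at 3. Of all promoter peaks 11.2% and of all distal peaks 1.33% had a smaller effect with (+)-JQ1, and 16.9% and 3.33% with IL-10. The share with a larger effect with (+)-JQ1 is not given here, and 2.15% of all distal peaks had one with IL-10. Loess offsets gave 60 and 32 smaller effects for (+)-JQ1 and IL-10, and total-count scaling gave 59 and 46. With (+)-JQ1 the interaction log2 fold-changes were -2.48, -2.32, -2.12 and -1.57 at 4 Oasl1 peaks, the last being its intronic lead promoter peak. With IL-10 they were -1.93 at the Rsad2 peak in an untranslated exon, -1.31 at the Mx2 peak, -1.24 at the promoter-class peak downstream of Oasl1, -1.22 at the exonic Cmpk2 peak and 1.03 at the intronic Ifi47 peak. Some of these missed the limits in edgeR without 1 replicate. The Oasl1 lead promoter peak had -1.57 (adjusted p = 0.065) without replicate 1 and -1.49 (adjusted p = 0.25) without replicate 2. The promoter-class Oasl1 peak with IL-10 had -1.20 (adjusted p = 0.069) without replicate 2, and the Cmpk2 peak had -0.72 (adjusted p = 0.46) without replicate 2 and -1.08 (adjusted p = 0.076) without replicate 3. The counts without replicate 2 were 11 for (+)-JQ1 and 8 for IL-10. Groups held 3 libraries, so single libraries were not tested as outliers.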

How the results depend on the processing

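The counts of peaks higher with LPS (396), lower with (+)-JQ1 under LPS (194), higher with LPS within (+)-JQ1 (236) and within IL-10 (345) stayed within 1.5 times under every alternative run, and the count lower with IL-10 under LPS (149) in all but 1. Under the replicate block, with the replicate number as a paired term, they were 394, 195, 237, 344 and 151, and no count left that range for any comparison (LPS against unstimulated lower 3, (+)-JQ1 alone 55 and 31, IL-10 alone 27 and 43, interactions 110 and 82 lower). Of 47 values of individually named peaks, all 47 kept their call under the block. Over all alternatives 49 of 555 such values lost the call and 0 changed sign. Equal numbers are not stated to mark the same mouse. Residual deviations had a mean correlation of 0.00573 between libraries of equal number and -0.00286 between others, and 9 of 18 libraries correlated best with one of their own number.

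With each replicate number left out in turn, the ranges were 340 to 372 and 1 to 1 (LPS higher, lower), 17 to 72 and 8 to 38 ((+)-JQ1 alone), 3 to 53 and 5 to 43 (IL-10 alone), 1 to 2 and 138 to 177 ((+)-JQ1 under LPS), 0 to 3 and 80 to 150 (IL-10 under LPS), 2 to 43 and 47 to 59 ((+)-JQ1 against IL-10 under LPS), 181 to 216 and 0 to 0 (LPS within (+)-JQ1), 281 to 308 and 0 to 3 (LPS within IL-10), 0 to 1 and 11 to 105 (interaction with (+)-JQ1) and 0 to 4 and 8 to 74 (interaction with IL-10). These fits have fewer samples.

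Scaling mattered for comparisons with unstimulated cells. Total-count scaling moved the all-peak median (log2 fold-change) from -0.03 to -0.26 (LPS), from -0.08 to -0.37 ((+)-JQ1 alone), from -0.05 to -0.26 (IL-10 alone), from 0.02 to 0.30 (interaction with (+)-JQ1) and from 0.04 to 0.31 (interaction with IL-10). It gave 18 higher and 126 lower with (+)-JQ1 alone, 3 and 97 with IL-10 alone, 5 higher with IL-10 under LPS, 14 higher for (+)-JQ1 against IL-10, 2 higher and 59 lower for the interaction with (+)-JQ1, and 16 and 46 for that with IL-10. Loess offsets gave 2 lower with LPS, 7 higher with (+)-JQ1 alone, 2 higher with IL-10 alone, 60 lower for the interaction with (+)-JQ1, and 5 higher and 32 lower for that with IL-10. DESeq2 size factors gave 2 lower with LPS. DESeq2 gave 2 lower with LPS, 27 lower with IL-10 alone and, of 523 peaks evaluated, 1 higher for the interaction with IL-10. With only the groups compared in the fit, 2 were lower with LPS and 5 higher with IL-10 under LPS.

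Requiring 10 counts in every library kept 413 of the 620 peaks. It gave 47 lower with (+)-JQ1 alone and 12 higher with IL-10 alone. With no limit on the fold, 50 were higher with IL-10 alone, 1 lower with LPS within (+)-JQ1 and 5 lower within IL-10. Only 405 of the 620 peaks were nearest to the TSS of a member gene, and the others lay nearer to another gene. Counting only the 405 gave 0 lower with LPS, 26 higher with (+)-JQ1 alone, and 11 higher and 27 lower with IL-10 alone. It gave 1 higher with each treatment under LPS, 15 higher for (+)-JQ1 against IL-10 and 0 lower with LPS within IL-10. The interactions were lower at 75 peaks with (+)-JQ1 and 54 with IL-10, next to 115 and 85 of the 620. A lower count under this rule is thus not by itself a lower share of peaks. Where no construction of the alternative explains a change, the cause was not tested. Lead promoter peaks with an ISRE core went from 16 of 42 in the middle 500 bases to 29 over the whole peak.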
